A study of Mus musculus with 6 samples.

Results

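The polo-like kinase family of the mouse comprises Plk1, Plk2, Plk3, Plk4 and Plk5, and its expression was examined in pancreatic islets with and without Sel1L in β cells. The members were taken as the probe sets whose annotation gives one of these 5 symbols and no other gene. Each gene had 1 such probe set, so the family makes up 5 of 22180 genes and 5 of the 41345 probe sets in the table. The family was proposed because Plk3 was among the genes that differed between the genotypes on these arrays. The genotype differences of the 5 members are therefore given as a description, with their errors and with no test.

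Polo-like kinases are serine/threonine kinases, most of which join a catalytic domain to polo-box repeats that dock them to phosphorylated partner proteins. PLK1 drives entry into mitosis, centrosome maturation, spindle assembly and cytokinesis, and PLK4 starts the duplication of centrioles. PLK2 and PLK3 are induced quickly by growth factors and by stress, among them DNA damage, and their genes are therefore also counted as immediate early genes. PLK5 is a divergent relative without known kinase activity.

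The wildtype group consisted of islets from littermates with floxed Sel1L alleles and no stated Cre, and the Sel1L-deficient group of islets from Sel1L floxed mice crossed with Ins1Cre, in which Cre is expressed from the Ins1 locus and so in β cells. Both groups were on the C57BL/6J background and 5 weeks old, and 3 arrays were available per genotype. The labels do not say whether an array pooled islets of several animals. The wildtype label stands for floxed controls with no stated Cre, so an effect of the Ins1Cre allele itself cannot be told apart from that of losing Sel1L. Islets were digested out with Liberase, picked by hand and kept overnight in RPMI medium before RNA was taken. The values are log2 RMA summaries, in which a difference of 1 is a doubling, and the array medians lay between 3.08 and 3.16.

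The deleted gene itself went with the labels. Sel1l read 8.46, 8.56 and 8.76 in wildtype and 7.73, 7.65 and 7.68 in Sel1L-deficient islets, and the position of its probes against the floxed exons was not analysed here. The labels call all samples female, but Xist was low (2.93 and 3.08) and the Y-linked transcripts were high (5.39 to 7.31) on replicate 3 of each genotype. The other 4 arrays gave 9.93 to 10.4 for Xist and 1.20 to 2.07 for the Y-linked transcripts. The values below are therefore also given without these arrays or within replicate 3 where a result rests on them. Of the 9 measured β cell markers, 9 lay above the highest array median, among them Iapp at 11.6 to 11.8 and Slc30a8 at 11.1 to 11.2.

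The promoters of Plk3, Plk2 and Plk1 are shown because Plk3 and Plk2 are the members on which the genotypes did not overlap, in opposite directions, and because Plk1 is the mitotic member, with known cell cycle control at its promoter. All 5 members matched a RefSeq promoter window of assembly GRCm38.p6 that runs from 250 bases before to 50 bases after the annotated start. Capitals mark TGACG or its reverse complement CGTCA, the half-site of the cAMP response element bound by the CREB and ATF factors, and TTTGAA, the cell cycle homology region (CHR) known from mitotic genes.
Plk3 promoter, chr4:117133914-117134213, minus strand: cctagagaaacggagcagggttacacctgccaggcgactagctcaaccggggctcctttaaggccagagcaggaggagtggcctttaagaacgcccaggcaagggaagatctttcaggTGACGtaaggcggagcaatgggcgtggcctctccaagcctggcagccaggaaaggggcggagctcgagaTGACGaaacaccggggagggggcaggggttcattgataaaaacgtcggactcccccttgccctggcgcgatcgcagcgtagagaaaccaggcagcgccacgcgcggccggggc
Plk2 promoter, chr13:110394794-110395093, plus strand: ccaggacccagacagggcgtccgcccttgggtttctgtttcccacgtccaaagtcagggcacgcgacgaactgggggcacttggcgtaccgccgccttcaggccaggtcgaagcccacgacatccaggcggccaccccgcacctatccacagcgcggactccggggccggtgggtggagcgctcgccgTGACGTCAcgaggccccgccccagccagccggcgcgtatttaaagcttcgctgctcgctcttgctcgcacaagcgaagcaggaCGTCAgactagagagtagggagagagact
Plk1 promoter, chr7:122159185-122159484, plus strand: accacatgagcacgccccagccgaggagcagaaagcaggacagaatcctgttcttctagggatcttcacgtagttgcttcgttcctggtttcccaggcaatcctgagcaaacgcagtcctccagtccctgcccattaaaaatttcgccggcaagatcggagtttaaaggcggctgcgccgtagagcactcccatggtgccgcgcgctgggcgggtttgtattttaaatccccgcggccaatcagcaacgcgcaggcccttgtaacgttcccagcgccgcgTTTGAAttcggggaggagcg

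The Plk2 window held the full palindrome TGACGTCA, starting at position -62 from the start site, which 1.79% of all 32851 windows of this length hold. The palindrome contains overlapping half-sites on both strands, and a further half-site lay at position 21, so that Plk2 had 3 half-site matches. Plk3 had 2 half-sites, at positions -132 and -63, and no palindrome. Plk4 had 1, and Plk1 and Plk5 had 0. Half-sites were found in 20.8% of all windows. TTTGAA was found in Plk1 alone among the 5 members, at position 30, and in 17.9% of all windows. All motifs were searched on both strands. These matches describe letters in a window and are not measured binding sites.

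Plk3 had the largest difference of the 5 members. It read 6.20, 6.23 and 6.53 on the wildtype arrays and 4.60, 4.61 and 4.58 on the Sel1L-deficient arrays. All 3 Sel1L-deficient values were lower than any wildtype value. The group values were 6.32 ± 0.18 and 4.59 ± 0.02 (SD, n = 3 each), and the difference was -1.73 ± 0.12 (SE from limma, with a 95% interval of -2.00 to -1.46), or 3.31-fold lower. By the size of its difference Plk3 ranked 12 among 22180 genes. Its level in Sel1L-deficient islets still lay above the array medians.

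The difference in Plk3 was present within the female-type and within the male-type arrays. Replicates 1 and 2 gave -1.61 and replicate 3 gave -1.95. Leaving out any 1 array gave -1.78 to -1.62. The Sel1L-deficient values spanned 0.0305 and the wildtype values 0.327, most of which came from wildtype replicate 3.

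Plk2, which shares with Plk3 its induction by growth factors and stress, read differently. It read 7.23, 7.38 and 7.14 in wildtype and 7.44, 7.41 and 7.48 in Sel1L-deficient islets. All 3 Sel1L-deficient values were higher than any wildtype value, by a margin of hundredths between the nearest arrays. The difference was 0.19 ± 0.11 (SE), with a 95% interval of -0.05 to 0.43 that includes 0. It was 0.11 over replicates 1 and 2 and 0.34 within replicate 3. Across all genes, 15.1% had genotypes that did not overlap, with 7.22% higher and 7.84% lower in Sel1L-deficient islets. Of the 5 members 2 did not overlap, Plk3 lower and Plk2 higher. Since the family was proposed from the same contrast, nothing is read from that count.

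**Figure D1:**
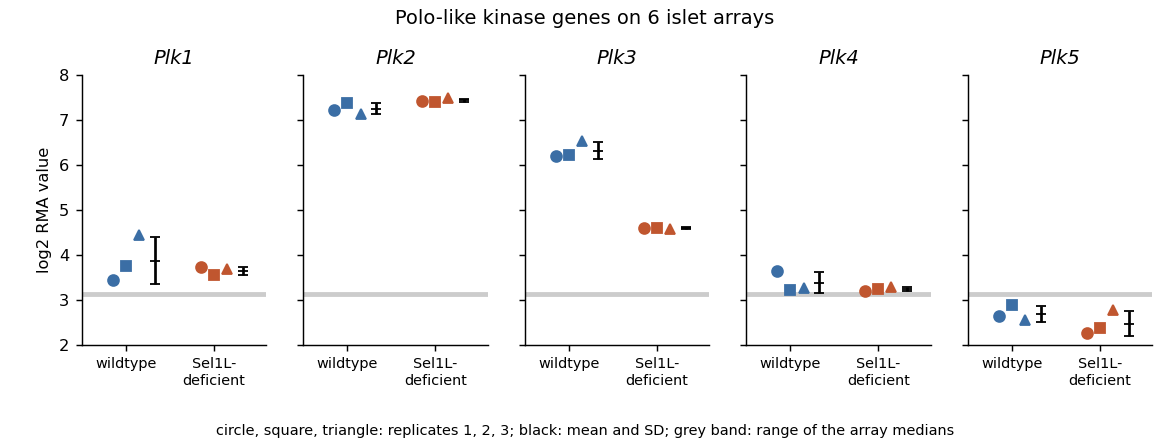
Log2 RMA values (vertical axis) of the 5 polo-like kinase genes on the 3 wildtype arrays (blue) and the 3 Sel1L-deficient arrays (orange), with mean and SD in black and the range of the array medians, 3.08 to 3.16, as a grey band. Plk3 lies at 6.20 to 6.53 in wildtype and at 4.58 to 4.61 in Sel1L-deficient islets, Plk2 stays between 7.14 and 7.48, and levels of different genes cannot be compared because each has its own probes.

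Plk1, the mitotic member, read 3.43, 3.74 and 4.44 in wildtype and 3.72, 3.54 and 3.68 in Sel1L-deficient islets. The genotypes overlapped, and wildtype replicate 3 stood above the other 5 arrays. The difference was -0.23 ± 0.23 (SE), with a 95% interval of -0.75 to 0.30. It was 0.06 without wildtype replicate 3 and 0.05 over replicates 1 and 2 of both genotypes, so its sign rested on that array. Within replicate 3 the difference was -0.77.

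Plk4, the centriole kinase, read 3.65, 3.22 and 3.26 in wildtype and 3.20, 3.25 and 3.29 in Sel1L-deficient islets. The genotypes overlapped, and wildtype replicate 1 was the highest array. The difference was -0.13 ± 0.13 (SE; 95% interval -0.44 to 0.17). It was -0.21 over replicates 1 and 2, 0.02 within replicate 3, and 0.00246 without wildtype replicate 1. The other 5 arrays lay at 3.20 to 3.29, just above the array medians.

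Plk5 read 2.63, 2.89 and 2.56 in wildtype and 2.26, 2.36 and 2.78 in Sel1L-deficient islets, below the array medians on all 6 arrays. The genotypes overlapped. The difference was -0.22 ± 0.16 (SE; 95% interval -0.59 to 0.14). It was -0.45 on replicates 1 and 2 and 0.23 within replicate 3. The means of the 1105 olfactory receptor genes on the array, a family that is mostly silent outside the olfactory epithelium, had a median of 1.56 and a 90th percentile of 2.22. Plk5 and Plk4 lay above that percentile on all 6 arrays. The table carries no detection call, so neither can be called detected, and their differences are not exact.

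Set side by side, the differences were -1.73 for Plk3, -0.23 for Plk1, -0.22 for Plk5, -0.13 for Plk4 and 0.19 for Plk2. The size of the Plk3 difference is what led to the choice of the family, and no test was made between members.

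**Figure D2:**
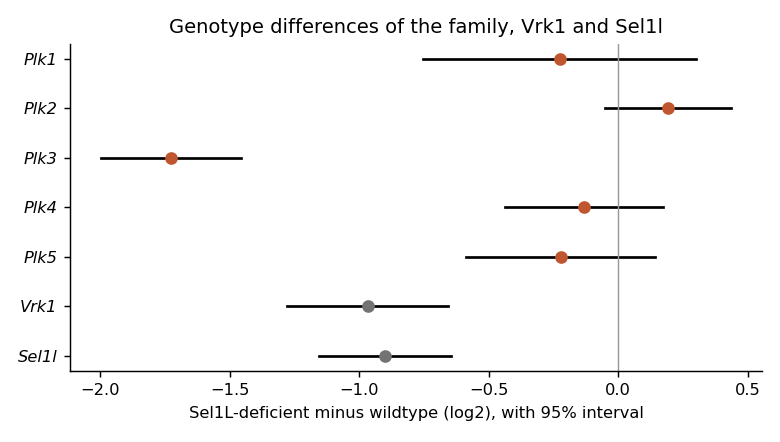
Difference between Sel1L-deficient and wildtype islets on the log2 scale (horizontal axis) with its 95% interval from limma, for the 5 polo-like kinase genes (orange) and, in grey, for Vrk1 and the deleted gene Sel1l. Plk3 lies at -1.73 and its 4 relatives between -0.23 and 0.19, as a description of genes chosen for Plk3.

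Islets are a mixture of cells, and in bulk RNA fewer cells of a type and less RNA per cell cannot be told apart. Markers of β cells moved with Plk3. Of 9 measured markers 4 fell (Mafa, Ucn3, Slc2a2 and G6pc2; limma, Benjamini-Hochberg adjusted p under the 0.05 threshold) and 0 rose, where 0.153% of all genes fell. All 9 were lower on all Sel1L-deficient arrays, as were 7.84% of all genes. The summed linear signal of these markers was 11712 to 13493 in wildtype and 8875 to 9200 in Sel1L-deficient islets. The brightest of them, Iapp and Slc30a8, differed by -0.09 and -0.07, and Ins2, the next brightest, by -0.50. The factors Nkx6-1, Pdx1 and Mafa differed by -0.56, -0.66 and -2.11. The summed signal of the 6 endothelial markers was higher in Sel1L-deficient islets (1498 to 1687 against 982 to 1277), as was that of the 6 mesenchymal markers (372 to 441 against 249 to 342), with 0 members past the threshold in either list. Of the endothelial markers 5 were higher on all Sel1L-deficient arrays, and 5 were at an unadjusted limma p under 0.05. For the mesenchymal markers these counts were 1 and 2. Over all genes the shares were 7.22% and 9.48%. The dimmest marker was Pdx1 at 7.03 in the β cell list, Tie1 at 4.17 in the endothelial list and Lum at 2.54 in the mesenchymal list. The part of these cells in the Plk3 difference was not tested.

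Genes that act with PLK2 and PLK3 gave 1 call, Vrk1. VRK1 is a nuclear kinase that PLK3 is known to phosphorylate. It read 7.42, 7.59 and 7.50 in wildtype and 6.68, 6.27 and 6.66 in Sel1L-deficient islets. All Sel1L-deficient values were lower, and the difference was -0.97 ± 0.14 (SE, n = 3 each; limma, Benjamini-Hochberg adjusted p = 0.041 over all 22180 genes), or 1.96-fold. Across all genes 54, or 0.243%, passed this threshold, 0.153% as falls and 0.0902% as rises. Of the 12 listed genes 9 were measured, of which 1 fell, 0 rose and 8 did not pass, and the list median was -0.01 against 0.000441 over all genes.

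The call on Vrk1 was close to the threshold. Its difference lay between -1.04 and -0.83 under every alternative run, but it did not pass without any 1 of the 6 arrays (limma adjusted p = 0.0843 to 0.157). With a covariate for the male-type arrays it was at 0.0507, and over all alternatives the adjusted p ran from 0.00456 to 0.229. The other 8 genes lay between -0.15 and 0.07. They include Hif1a, the hypoxia factor that PLK3 phosphorylates, with a difference of -0.01 ± 0.10 (SE), and Cib1, a calcium-binding partner of PLK2 and PLK3, with -0.14 ± 0.11.

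Immediate early genes, the class to which Plk2 and Plk3 belong by their induction, gave no call. Of 25 measured members 0 rose and 0 fell (limma, adjusted over all genes), 4 were at an unadjusted p under 0.05, and the differences ran from -0.67 to 0.44 with a median of -0.09. Over all genes 9.48% were at an unadjusted p under 0.05 (2103 of 22180), the share against which this and the later counts at that level are read. The lowest difference was that of Nr4a1, an orphan nuclear receptor, with -0.67 ± 0.24 (SE, limma adjusted p = 0.413). The 2 members with the highest mean were Jun, with a difference of 0.06 ± 0.20 (SE), and Jund, with 0.09 ± 0.11, both subunits of the AP-1 factor. The kinase gene Sik1 was lower on all Sel1L-deficient arrays (difference -0.47 ± 0.12 SE, limma adjusted p = 0.243), and the ERK phosphatase gene Dusp6 higher (0.34 ± 0.10, adjusted p = 0.348). Neither passed the threshold.

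Part of the list differed between replicates within each genotype. Counted after the values of Egr1 and Fos had been seen, replicate 2 was the highest array in both genotypes for 12 of the 25 immediate early genes, and for 10.1% of all genes. The other 13 did not show this order. The growth-response factor Egr1, chosen after its values were seen, read 7.35, 8.79 and 7.38 in wildtype and 6.79, 8.19 and 6.63 in Sel1L-deficient islets. Fos, chosen the same way, read 7.11, 7.95 and 6.99 in wildtype and 6.72, 8.09 and 5.89 in Sel1L-deficient islets. Plk3 was not highest on replicate 2 in either genotype, and Plk2 was highest there in wildtype and lowest there in Sel1L-deficient islets. With the replicate 2 array of wildtype left out, Plk3 differed by -1.77, and with that of Sel1L-deficient islets left out, by -1.73.

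**Figure D3:**
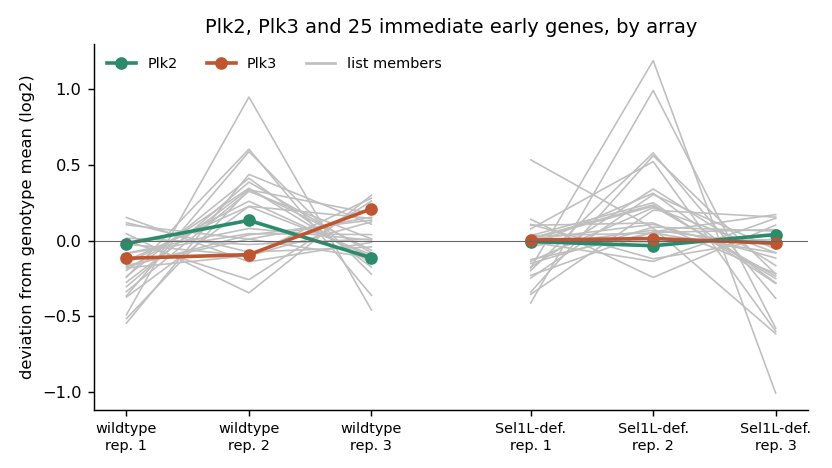
Deviation of each gene from its genotype mean on the log2 scale (vertical axis) on each of the 6 arrays, for 25 immediate early genes (grey), Plk2 (green) and Plk3 (orange), where lines join the values of one gene and replicates have no order. Many grey lines peak on replicate 2 of both genotypes (12 of 25 genes), while Plk3 is highest on wildtype replicate 3 and spans 0.0305 in Sel1L-deficient islets.

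Genes of the p53 and DNA damage response, the other setting in which Plk2 and Plk3 are induced, gave no call. Of 17 measured members 0 rose and 0 fell (limma, adjusted over all genes), 3 were at an unadjusted p under 0.05 (9.48% of all genes), and the median difference was 0.03. Cyclin G1, Ccng1, differed by -0.03 ± 0.12 (SE) and the cell cycle inhibitor Cdkn1a by 0.39 ± 0.15. Trp53inp1, a p53-induced stress protein, was higher on all Sel1L-deficient arrays, with 7.25, 7.17 and 7.39 against 6.80, 6.85 and 6.78 (difference 0.45 ± 0.10 SE, limma adjusted p = 0.211). It ran opposite to Plk3 and did not pass the threshold. In total 3 members of the list were higher on all Sel1L-deficient arrays and 0 were lower. The shares over all genes were 7.22% higher and 7.84% lower.

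The mitotic circuit of PLK1, its activators, docking partners and mitotic targets, showed no called member either. Of 24 measured genes 0 rose and 0 fell (limma, adjusted over all genes), 2 were at an unadjusted p under 0.05 (9.48% of all genes), and the differences ran from -0.35 to 0.15 with a median of -0.05. The members with the highest mean were Fzr1, an activator of the anaphase-promoting complex that marks PLK1 for destruction, with -0.02 ± 0.11 (SE), and Nudc, a PLK1 substrate, with 0.04 ± 0.10. Aurora kinase A, Aurka, which activates PLK1, was the 1 gene of the list without overlap, with 3.95, 3.90 and 4.19 in wildtype and 3.78, 3.64 and 3.70 in Sel1L-deficient islets (difference -0.31 ± 0.12 SE, limma adjusted p = 0.443). It did not pass the threshold, and 15.1% of all genes had genotypes that did not overlap.

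Like Plk1, many of these genes were highest on wildtype replicate 3. This held for 12 of the 24, or 50%, and for 16.3% of all genes. The genes were counted this way after the values of Plk1 had been seen. Cdc25c, the phosphatase that PLK1 helps to activate, read 3.55 on that array and 2.35 to 2.67 on the other 5. Ect2, the cytokinesis factor that PLK1 recruits to the midzone, read 6.00 there and 4.71 to 5.36 elsewhere. Sel1L-deficient replicate 3, which also carried male-type transcripts, did not stand out in Plk1 (3.68) or Cdc25c (2.61), whereas the cyclin gene Ccnb2 was high on both replicate 3 arrays (5.26 and 5.18, against 4.37 to 4.75). Both replicate 3 arrays also read highest for the acinar cell markers Cpa1, Cela1, Ctrb1 and Ptf1a. Cela1 read 9.65 and 9.83 there and 6.88 to 8.98 elsewhere, and Ctrb1 12.3 and 12.1 against 10.6 to 11.7. The part of acinar RNA in these and the later replicate 3 patterns was not tested. Of the 24 genes 16 had means above the highest array median. No detection call was available, so the dimmer members of the list cannot be called detected.

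**Figure D4:**
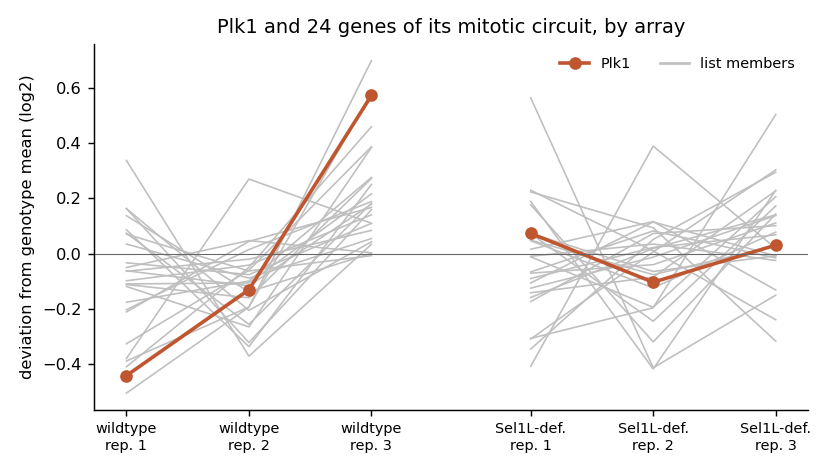
Deviation from the genotype mean on the log2 scale (vertical axis) on each of the 6 arrays, for Plk1 (orange) and 24 genes of its mitotic circuit (grey), where lines join the values of one gene and replicates have no order. Plk1 is highest on wildtype replicate 3, as are 12 of the 24 genes, and the Sel1L-deficient arrays show less spread in Plk1.

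The centriole genes that work with PLK4 had 0 calls among 16 measured members (limma, adjusted over all genes), with 2 at an unadjusted p under 0.05 (9.48% of all genes) and a median difference of -0.01. The ubiquitin ligase subunits Btrc, which recognises PLK4 for degradation, and Fbxw5 had the highest means and differed by 0.09 ± 0.10 and -0.10 ± 0.10 (SE). Stil, the scaffold that PLK4 phosphorylates, had the lowest difference of the list and was chosen for it. It read 3.03, 2.90 and 2.70 in wildtype and 2.36, 2.38 and 2.43 in Sel1L-deficient islets (-0.48 ± 0.11 SE, limma adjusted p = 0.226), all below the array medians. In total 3 members were lower on all Sel1L-deficient arrays and 1 was higher, against 7.84% and 7.22% of all genes.

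Genes of DNA replication and the G1 and S phases had 0 calls among 20 measured members (limma, adjusted over all genes), with 3 at an unadjusted p under 0.05 (9.48% of all genes). Their median difference was -0.14, and 4 members were lower on all Sel1L-deficient arrays while 1 was higher. Over all genes 7.84% were lower on all Sel1L-deficient arrays and 7.22% higher. Cyclin D2, Ccnd2, and its partner kinase Cdk4 had the highest means and differed by -0.31 ± 0.09 and -0.13 ± 0.11 (SE). Ccna2, the S-phase and mitotic cyclin, had the lowest difference, with 4.73, 4.88 and 4.88 in wildtype and 4.35, 4.20 and 4.40 in Sel1L-deficient islets (-0.52 ± 0.11 SE, limma adjusted p = 0.174). The proliferation marker Mki67 overlapped, with 4.73, 5.03 and 5.37 in wildtype and 5.00, 4.43 and 5.51 in Sel1L-deficient islets.

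**Figure D5:**
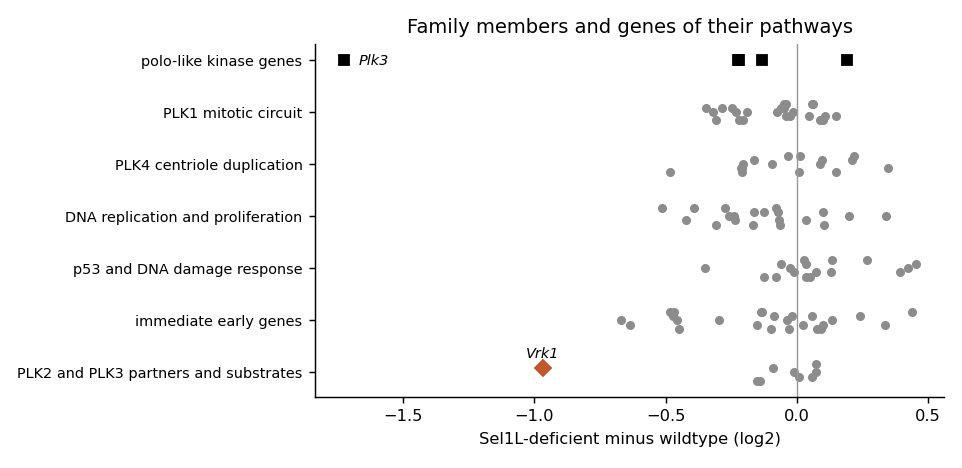
Difference between Sel1L-deficient and wildtype islets on the log2 scale (horizontal axis) for each measured gene of 6 pathway lists (grey circles) and for the 5 polo-like kinase genes (black squares), with a gene past the limma threshold as an orange diamond. Vrk1 at -0.97 is the 1 called gene in the lists, and Plk3 at -1.73 lies beyond all of them.

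The genes most like Plk3 were ranked by Pearson r over the 6 arrays, among genes brighter than the highest array median. Here and in the rankings below, olfactory receptor genes and gene models without a proper name, such as Gm and Rik symbols, were left out. The 5 nearest were the deleted gene Sel1l (r = 0.995), the cyclin gene Ccnd2 (0.994), the DNA repair gene Mgmt (0.994), the β cell factor Mafa (0.993) and the RNA-processing gene Srrt (0.992). All of them were lower on every Sel1L-deficient array, as were 7.84% of all genes. Sel1l and Mafa passed the threshold (limma adjusted p = 0.0312 and 0.000681). Ccnd2, Mgmt and Srrt did not pass it (0.3489, 0.4962 and 0.3998). Over 6 points the ranking thus mainly returns genes whose genotypes do not overlap, whether or not their difference passes. An r of 0.95 was reached by 110 of 11150 genes. The differences were unequal in size, from -0.22 for Mgmt to -2.11 for Mafa.

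After each genotype's mean was removed, the 5 nearest to Plk3 were Niban1 (r = 0.998), the autophagy receptor gene Sqstm1 (0.995), the stress-response factor gene Atf5 (0.995), Wdfy1 (0.994) and Tcf24 (0.994). An r of 0.95 was reached by 80 of 11150 genes. All 5 were highest among the wildtype arrays on replicate 3, as Plk3 was. Without wildtype replicate 3 these r were 0.828 for Niban1, 0.411 for Sqstm1, 0.981 for Atf5, 0.303 for Wdfy1 and 0.0022 for Tcf24. On the remaining arrays Plk3 itself hardly varied, at 6.20 and 6.23 in wildtype and 4.58 to 4.61 in Sel1L-deficient islets. These r rest on hundredths and cannot show for any of the 5 genes whether the likeness held without that array. Niban1, a stress-induced gene, read 3.45, 3.56 and 4.59 in wildtype and 5.12, 5.18 and 5.12 in Sel1L-deficient islets. It was thus higher on all Sel1L-deficient arrays, as were 7.22% of all genes, while Plk3 was lower. The Niban1 difference of 1.28 ± 0.27 (SE) did not pass the threshold (limma adjusted p = 0.181). For Plk2 the 5 nearest over the 6 arrays were Mex3b (0.986), Arg1 (0.986), Dnaja3 (0.983), Acsf2 (0.981) and Arhgef25 (0.974). After removal of the genotype means they were Haus1, Twistnb, Plekhf2, Pcdhb15 and Arg1, with r from 0.989 to 0.990. For Plk2 an r of 0.95 was reached by 21 genes over the 6 arrays and by 38 after that removal. The rankings of Plk2 and Plk3 shared 0 of the genes named here. Because Plk2 and Plk3 differed in opposite directions, their rankings over the 6 arrays could hardly share a gene. Lists of 5 out of 11150 genes are also short, so nothing is read from this count.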

How the data were processed

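RNA of 6 islet samples was hybridised to Affymetrix arrays, 3 per genotype. The authors deposited log2 values summarised with RMA, per the submitters' processing notes, which corrects background, normalizes between arrays and can pull large ratios toward 1. The version is not given in the sources used here, and the log base was taken from the values (0.526 to 13.0). Each gene was represented by the probe set with 1 gene symbol and the highest mean, which gave 22180 genes. Differences were fitted with limma 3.58.1 in R 4.3.3 (lmFit, eBayes, two-sided), with Benjamini-Hochberg adjustment over all genes and a threshold of 0.05. Errors are SD over 3 arrays or SE from limma. Nothing says that the samples came from separate animals, so the spread behind each p-value is that between these samples and may be technical. Sequences came from RefSeq windows of GRCm38.p6, and no other coordinates are given because no build is stated for the array design.

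The members and the 6 pathway lists (120 entries, 109 distinct genes measured, with Jun and Chek2 in more than 1 list) were chosen with earlier results of these data known. Named from the lists were up to 4 called members or, where none was called, the 2 with the highest mean. Genes named beyond this rule, among them Aurka, Ccnb2, Cdc25c, Ect2, Stil, Ccna2, Mki67, Trp53inp1, Nr4a1, Sik1, Dusp6, Egr1, Fos, Hif1a and Cib1, were chosen after their values were seen. Further marker lists, given as summed linear signal, covered β, α, δ and PP, acinar, duct, endothelial and mesenchymal cells and leukocytes. The lists not described above gave 0 calls in limma. The summed signal in wildtype and Sel1L-deficient islets was 9471 to 9786 and 10013 to 10512 for α cells, 14161 to 15405 and 15108 to 17013 for δ and PP cells, 3053 to 7141 and 1832 to 6555 for acinar cells, 78.9 to 97.8 and 66.5 to 85.3 for duct cells, and 144 to 176 and 138 to 174 for leukocytes. At an unadjusted p under 0.05 there was 1 α cell gene and 0 genes in the other 4. Alternatives were other probe set rules, filters, normalizations, variance priors, covariates and each array left out.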

Additional observations from a re-analysis of the deposited data

How the results depend on the processing

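Under all 15 alternatives Plk3 kept its direction, with differences from -1.78 to -1.61, and moved by less than 1 SD of its replicates. Several of them could not move it from -1.73, since Plk3 has 1 probe set and the covariates were balanced over the genotypes. These were the probe set rules, the filter, the variance prior, the covariate for male-type arrays and the replicate block. Only the normalizations and the fits on fewer arrays could move it. Plk2 stayed between 0.11 and 0.26 and Plk5 between -0.45 and -0.12, while Plk1 ran from -0.45 to 0.06 and Plk4 from -0.21 to 0.00246. Plk4 and Plk5 gave no value among the genes above the median of all genes, since both lie below it. The number of genes called was 54 as reported, 133 with a trended and robust variance prior and 1 on the female-type arrays alone, and 4 to 29 with 1 array left out. The count without an array was 10, 9 and 7 for wildtype replicates 1, 2 and 3, and 4, 7 and 29 for Sel1L-deficient replicates 1, 2 and 3. Of the PLK2 and PLK3 partners 1 gene was called as reported, and 0 with the covariate for male-type arrays, on female-type arrays alone, with the replicate block, and in all fits with 1 array left out (0 to 0). The other 5 pathway lists had 0 calls in every fit. The replicate numbers do not pair the samples by their labels. The deviations of same-numbered arrays correlated at 0.105, 0.072 and 0.210 over genes, and each of the 3 wildtype arrays correlated best with its own number. With the replicate number as a block 36 genes passed, Plk3 differed by -1.73 and Vrk1 was at limma adjusted p = 0.0747. With 3 arrays per genotype and no detection call, small differences in dim members such as Plk4 and Plk5 cannot be resolved.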
